A study of Mus musculus with 8 samples.

Results

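Interferon response genes were examined in m6ARIP-seq of mouse liver, a method that sequences the mRNA fragments pulled down by an antibody to N6-methyladenosine (m6A; IP) beside the fragments taken before the pull-down (input). A list of 47 genes of the interferon pathway was searched by gene name in the deposited peak lists, and 44 of them were named there, of 11558 genes named in one genotype's list or the other. Livers came from C57BL/6 mice at 8 weeks of age on normal chow. *Wtap* flox/flox mice carry floxed *Wtap* alleles, and *Wtap*-HKO mice carry the same alleles and Alb-Cre, which deletes *Wtap* in hepatocytes, so that the other cells of the liver keep the gene. From each genotype 2 IP and 2 input libraries were sequenced, 8 in total, and each replicate used RNA pooled from several mice. The authors deposited 1 peak list for each genotype and 1 list of peaks called different between them, with the replicates combined in each. The values therefore carry no SD, no comparison of the genotypes can be weighed against replicate error, and the depth of the libraries is unknown.

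Type I interferons act through IFNAR1 and IFNAR2 and the kinases JAK1 and TYK2, and interferon gamma through IFNGR1 and IFNGR2. The kinases activate STAT proteins, and STAT2 with IRF9 forms a factor that binds the interferon-stimulated response element (ISRE) of target genes, whose products sense viral RNA, block translation, conjugate ISG15 or present antigens. m6A marks adenosines of mRNA, mostly near stop codons, and influences mRNA decay and translation. It is written by METTL3 with METTL14, and WTAP is a regulatory subunit of that complex. Interferon genes are active in hepatocytes and in the resident immune cells of the liver.

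The ISRE is what joins many of these genes, so their start regions were read first. RefSeq (GRCm38.p6) promoter windows, which run from 250 bases before to 50 bases after the gene start, were found for 38 of the 47 genes. The core letters GAAANNGAAA, where N is any base, were searched on both strands, with overlapping matches counted. They were present in 17 of the 38 windows (44.7%), and in 3.99% of the windows of 27025 genes. The match lay before the start in 14 of the 17 genes and only after it in *Ddx58*, *Ifih1* and *Eif2ak2*. Shown here are 30 bases of each gene that had the letters before its start and either a differential peak or a peak in *Wtap*-HKO only, written 5´ to 3´ on the gene's strand. The capitals mark the match, or a run of overlapping matches, and a match in the opposite orientation reads TTTCNNTTTC.
*Stat2*, chr10:128270266-128270295, plus strand: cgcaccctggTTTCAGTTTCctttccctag
*Isg15*, chr4:156200871-156200900, minus strand: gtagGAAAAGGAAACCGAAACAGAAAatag
*Oas3*, chr5:120777715-120777744, minus strand: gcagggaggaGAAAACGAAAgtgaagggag
*Ifit3*, chr19:34583363-34583392, plus strand: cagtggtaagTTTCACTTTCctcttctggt
*Gbp2*, chr3:142620594-142620623, plus strand: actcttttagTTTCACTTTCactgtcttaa
*Igtp*, chr11:58199512-58199541, plus strand: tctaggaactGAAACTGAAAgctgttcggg
*Irgm1*, chr11:48871428-48871457, minus strand: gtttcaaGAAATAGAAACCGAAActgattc
Distances here are from the start that the promoter table uses, which differs in 16 of the 38 genes from the start of the RefSeq gene span used for placing peaks, among them *Ifit3* (410 nt apart) and *Oas3* (25 nt). In *Isg15* the capitals lay 57 to 78 bases before the start, in *Irgm1* 15 to 30 bases, and in *Igtp* 25 to 34 bases. Those of *Gbp2* lay 50 to 59, those of *Oas3* 66 to 75, those of *Ifit3* 147 to 156 and those of *Stat2* 213 to 222 bases before it. *Ifit3* had a further match, not shown, that began 122 bases before its start. Of the 17 genes with them, 13 had a *Wtap* flox/flox peak, 16 a *Wtap*-HKO peak and 6 a differential peak. Of the 21 genes without them the numbers were 18, 20 and 7.

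Peaks were named for 36 of the 47 genes in *Wtap* flox/flox livers and for 44 in *Wtap*-HKO livers. All 36 genes with a peak in *Wtap* flox/flox also had one in *Wtap*-HKO, and 8 genes had a peak in the *Wtap*-HKO list only. These were *Irf7*, *Usp18*, *Ifih1*, *Mx1*, *Oas2*, *Oas3*, *Gbp2* and *Psmb9*. No gene had a peak in *Wtap* flox/flox only, and *Tyk2*, *Mx2* and *Oas1a* had none in either list. Across all genes with a peak, 22% had one in *Wtap*-HKO only. The 8 of 44 interferon genes are 18.2% (95% Wilson interval 9.51% to 32.0%, counting error only), a share whose interval holds the background. Among all genes, 924 of the 9020 with a *Wtap* flox/flox peak (10.2%) had none in *Wtap*-HKO. The number of peaks went from 74 to 97, a ratio of 1.31, beside 1.23 over all genes (15635 and 19185 peaks). There were 22 genes with more peaks in *Wtap*-HKO, 17 with as many and 5 with fewer. The exonic bases under the peaks of these genes came to 32982 nt in *Wtap* flox/flox, against 43262 nt in *Wtap*-HKO, a ratio of 1.31 beside 1.19 over all genes. The median peak was 360 nt and 299 nt long, beside 269 nt and 240 nt over all peaks.

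In whole liver, fewer cells of a type and less RNA per cell cannot be told apart, and the lists give no transcript levels. Leukocyte markers were named more often in the *Wtap*-HKO list, which names 10634 genes in all, against 9020 in *Wtap* flox/flox. Of all genes with a peak, 22% had one in *Wtap*-HKO only. Peaks were named for 2 of 6 leukocyte markers in *Wtap* flox/flox (*Clec4f* and *Cd74*) and for 5 in *Wtap*-HKO, with *Ptprc* (fold enrichment 5.76), *Cd68* (2.33) and *Lyz2* (10.9) in the latter alone and *Adgre1* had none in either list. The numbers were 4 and 4 of 6 for hepatocyte markers, with *Alb*, *Apob* and *Hnf4a* in both lists, *Cyp2e1* (1.59) in *Wtap* flox/flox only and *Ttr* (6.18) in *Wtap*-HKO only, 2 and 2 of 3 for endothelial markers, and 1 and 2 of 3 for stellate cell markers. The part of these cells in the peaks of the interferon genes was not tested. *Wtap* itself had 3 peaks in each list, but they were not alike. Fold enrichments were 8.06, 20.7 and 8.78 in *Wtap* flox/flox, against 4.47, 20.5 and 20.6 for the overlapping peaks in *Wtap*-HKO. These values give no level of *Wtap* RNA.

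**Figure D1:**
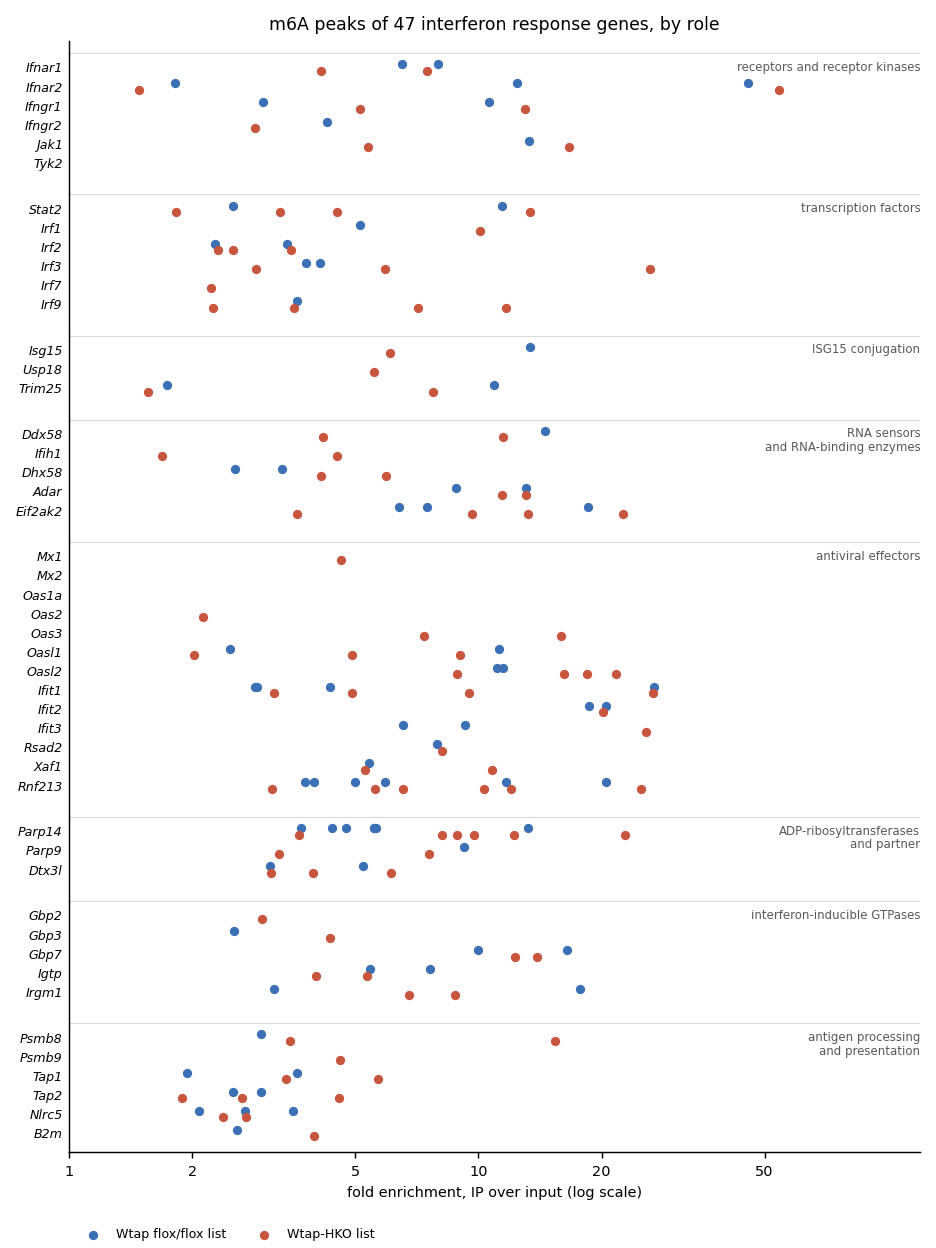
Fold enrichment of IP over input (log scale) of every peak of the 47 interferon response genes, grouped by role, in the *Wtap* flox/flox list (blue) and the *Wtap*-HKO list (red). Points are single peaks of combined replicates and have no error. The 8 genes with red points only are *Irf7*, *Usp18*, *Ifih1*, *Mx1*, *Oas2*, *Oas3*, *Gbp2* and *Psmb9*, and the 3 rows without a point are *Tyk2*, *Mx2* and *Oas1a*.

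Fold enrichment, the ratio of IP to input over a peak, spanned much the same range in both genotypes. The median over the peaks of these genes was 5.41 in *Wtap* flox/flox (lowest 1.74, highest 45.5, 74 peaks) and 5.69 in *Wtap*-HKO (lowest 1.48, highest 54.2, 97 peaks). Over all peaks of the lists the medians were 5.51 and 5.93. The highest value of both lists among these genes belonged to *Ifnar2*, at its 3´ end. In the following, values are fold enrichments, first in *Wtap* flox/flox and then in *Wtap*-HKO, and peaks are matched when they share at least 1 exonic base on the same strand.

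Receptors and receptor kinases had 9 peaks in each list. *Ifnar2*, a subunit of the type I interferon receptor, had peaks of 45.5 and 12.4 at its 3´ end in *Wtap* flox/flox, and these were joined as 1 peak of 54.2 in *Wtap*-HKO (chr16:91403730-91405469, plus strand). That peak was at percentile 98.3 of its list, and the higher of the other genotype's 2 peaks at percentile 99.2. A further small peak of *Ifnar2*, 1.82 and 1.48, overlapped peaks of *Gm21970* on the same strand, so its reads cannot be given to 1 gene. *Ifnar1*, the other subunit, had peaks of 7.96 and 6.51 in *Wtap* flox/flox, against 7.51 and 4.13 in *Wtap*-HKO. *Ifngr2*, a subunit of the interferon gamma receptor, had 1 peak, of 4.26 and 2.85. Its partner *Ifngr1* had its 3´ peaks of 10.6 and 2.98 joined as 1 of 13, and a second peak in *Wtap*-HKO only, of 5.15, starting 60 nt from the gene start (chr10:19592009-19592189, plus strand). *Jak1*, the kinase that both interferon types use, had the same form. Its 3´ peak was 13.3 and 16.6, and a peak of 5.38 lay 30 nt from the gene start in *Wtap*-HKO only. *Tyk2*, the second kinase of the type I receptor, had no peak.

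Transcription factors of the pathway had 8 peaks in *Wtap* flox/flox, against 16 in *Wtap*-HKO. *Irf3*, which is activated by viral RNA sensing and switches on interferon genes, had the largest ratio of all matched peaks of the 47 genes. Its peak at the gene start was 3.79 in *Wtap* flox/flox, against 26.2 in *Wtap*-HKO (chr7:44997648-44997857, plus strand), a log2 ratio of 2.79, while the peak in its 3´ part was 4.10 and 2.87. Another peak, of 5.91, began 598 nt from the start in *Wtap*-HKO only. The peak at the start of *Irf1*, an activator of interferon gamma targets, was 5.14 and 10.1. *Irf9*, the DNA-binding partner of STAT2, had 1 peak in *Wtap* flox/flox, against 4 in *Wtap*-HKO. The shared peak, in its 3´ part, was 3.61 and 2.25, and the added peaks, of 11.7, 7.13 and 3.54, all lay in the first part of the gene or just before it. The peak of 11.7 starts before the RefSeq start of *Irf9*, so its gene is given as the list names it. *Stat2* had 3´ peaks of 11.4 and 2.51 in *Wtap* flox/flox, against 13.4 and 3.27 in *Wtap*-HKO, where peaks of 4.52 (61 nt from the gene start) and 1.83 were added. *Irf2*, which competes with IRF1, had 3´ peaks of 2.27 and 3.40 against 2.51 and 3.48, and a peak of 2.31 within the gene in *Wtap*-HKO only. *Irf7*, the amplifier of interferon production, had 1 peak, of 2.22, in *Wtap*-HKO only.

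Of ISG15 and the enzymes that attach or remove it, the 3 matched peaks were all lower in *Wtap*-HKO. *Isg15*, the ubiquitin-like modifier, had 1 peak in each list, of 13.4 in *Wtap* flox/flox (chr4:156199569-156200034, minus strand) and 6.08 in *Wtap*-HKO. This log2 ratio of -1.14 was the lowest of the matched peaks of the 47 genes, and the peak stood at percentile 84.9 of the first list and 51.2 of the second. *Trim25*, an E3 ligase for ISG15 and ubiquitin, had peaks of 10.9 and 1.74, against 7.73 and 1.56. *Usp18*, the protease that removes ISG15 and dampens receptor signalling, had a peak of 5.57 at its start, 30 nt from the gene's first base, in *Wtap*-HKO only.

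RNA sensors and RNA-binding enzymes had 8 and 12 peaks, with 6 of 8 matched peaks higher in *Wtap*-HKO, 1 lower and 1 equal. *Eif2ak2* (PKR), the kinase that halts translation on binding double-stranded RNA, had 3 neighbouring peaks near its 3´ end, of 7.47, 18.5 and 6.39 in *Wtap* flox/flox, against 13.2, 22.6 and 9.65 in *Wtap*-HKO. The peak of 3.61 at its start was in *Wtap*-HKO only (false discovery rate 6.3e-05). It overlapped that of an unnamed gene on the other strand by 91 nt. *Ddx58* (RIG-I), a sensor of viral RNA ends, was the lower one, 14.5 and 11.5 near its 3´ end, and had an added peak of 4.17 at its start. *Ifih1* (MDA5), a sensor of long double-stranded RNA, had peaks of 4.52, 90 nt from the gene start, and of 1.69, 538 nt from it, both in *Wtap*-HKO only. *Dhx58* (LGP2), their regulator, had peaks of 3.31 and 2.54 against 5.95 and 4.13. *Adar*, which edits adenosines of double-stranded RNA to inosine, had peaks of 8.81 and 13.1 against 11.4 and 13.1.

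Antiviral effectors were the largest group, 13 genes with 20 and 26 peaks. Of its 9 matched peaks 7 were higher in *Wtap*-HKO. IFIT1 binds viral RNA at its 5´ end, and IFIT2 and IFIT3 act with it. *Ifit3* had peaks of 6.55 and 9.29 in *Wtap* flox/flox, joined as 1 of 25.6 over 1686 nt in *Wtap*-HKO. *Ifit2* had 20.5 and 18.6, joined as 1 of 20.1. *Ifit1* had its main peak at 26.8 and 26.7 and a peak of 9.49 (false discovery rate 0.00014) at its start in *Wtap*-HKO only. The oligoadenylate synthetases activate RNase L on sensing double-stranded RNA. *Oas3* had peaks of 15.9 (chr5:120769199-120769499, minus strand) and 7.38 in *Wtap*-HKO only, the highest among the genes without a *Wtap* flox/flox peak, and *Oas2* a small one of 2.13 (false discovery rate 0.0011). Of the OAS-like genes, *Oasl2* had 11.1 and 11.5 in *Wtap* flox/flox, against overlapping peaks of 18.4 and 16.2 in *Wtap*-HKO. The peak of 18.4 covered 659 nt and began farther 5´, while that of 11.1 covered 270 nt. Added peaks of *Oasl2* in *Wtap*-HKO were 8.85 and 21.7, the latter with a false discovery rate of 1.2e-05. In *Oasl1* the 3´ peak of 11.2 was split into 2 of 2.02 and 4.92, a peak of 2.47 was seen in *Wtap* flox/flox only, and one of 9.03 in *Wtap*-HKO only. *Rnf213*, a large E3 ligase, had 6 peaks in each list. Its peak of 5.90 in *Wtap* flox/flox was 12 in *Wtap*-HKO, a log2 ratio of 1.02, and 3 neighbours of 20.5, 3.97 and 5 were joined as 1 of 25. At *Rsad2* (viperin), which makes a chain-terminating nucleotide, the single peak was 7.93 and 8.13. *Xaf1*, which promotes cell death, had a shared peak of 5.39 and 5.28 and an added one of 10.8, 198 nt from the gene start. *Mx1*, listed by RefSeq as a transcribed pseudogene in this strain's genome, had a peak of 4.63 (false discovery rate 3.5e-05) in *Wtap*-HKO only.

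The ADP-ribosyltransferases PARP14 and PARP9 and the E3 ligase DTX3L, the partner of PARP9, had 10 and 11 peaks. *Parp14* had 7 peaks in *Wtap* flox/flox, of 3.69 to 13.2, and 6 in *Wtap*-HKO, of 3.64 to 22.8. Its largest peak covered the same 1019 nt in both lists (chr16:35833831-35834849, minus strand) and was 13.2 and 22.8, and 3 of its 4 matched peaks were higher in *Wtap*-HKO by log2 ratios of 0.78 to 0.80. A peak of 8.87 lay 94 nt from the gene start in *Wtap*-HKO only. *Parp9* had its main peak at 9.23 and 7.58, and *Dtx3l* peaks of 3.09 and 5.24 against 3.95 and 6.12. *Parp9* and *Dtx3l* lie head to head, and the peaks that each had near its start in *Wtap*-HKO only (3.25 and 3.11) shared 144 nt on opposite strands. The labels state no strand-specific library, so these reads cannot be given to 1 of the 2 genes.

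The interferon-inducible GTPases act in the defence against intracellular pathogens. *Irgm1* carried 2 opposite differences. Its large 3´ peak was 17.7 and 8.78, a log2 ratio of -1.01 (chr11:48865806-48866974 in *Wtap* flox/flox, minus strand), and the peak at its start was 3.17 and 6.78, a log2 ratio of 1.1. Both peaks of *Igtp* were lower in *Wtap*-HKO, 7.63 and 5.33 for the first and 5.43 and 4.01 for the second. The first covered 507 nt in *Wtap* flox/flox and 744 nt in *Wtap*-HKO, where it began farther 5´, so its 2 values cover different stretches. *Gbp7* had peaks of 10 and 16.5 joined as 1 of 12.3, part of which overlapped an unnamed gene on the same strand, and an added peak of 13.9 at its start. *Gbp3* had 2.53 and 4.35, and *Gbp2* 1 peak of 2.96 (false discovery rate 7.6e-05), in *Wtap*-HKO only. The sequences of the GBP, IRG, OAS and IFIT families are alike, so the split of reads among their members is uncertain.

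Genes of antigen processing and presentation had 9 and 11 peaks, and 6 of their 7 matched peaks were higher in *Wtap*-HKO. *Tap1*, a subunit of the peptide transporter, had peaks of 3.61 and 1.94 against 5.69 and 3.39, and the first reached to 27 nt from the gene start in *Wtap*-HKO. *Tap2*, the other subunit, had 2.51 and 2.95 against 1.89 and 4.56, with an added peak of 2.64 that shared 97 nt with *Gm15821* on the other strand. The immunoproteasome subunit *Psmb8* had a peak near its start of 2.94 and 3.46 and an added one of 15.4, 539 nt from the start. *Psmb9*, a second subunit, had a peak of 4.59 at its start in *Wtap*-HKO only. *B2m*, the light chain of MHC class I, had 2.57 and 3.96. *Nlrc5*, the activator of MHC class I genes, had 3 small peaks, of 2.08, 2.69 and 3.53, and 2, of 2.38 and 2.71. Its 3´ peak of 3.53 was in *Wtap* flox/flox only.

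Peaks at the 5´ end of these genes were few in *Wtap* flox/flox and many in *Wtap*-HKO. A peak was counted there when its outer edge lay within 200 nt of the RefSeq gene start. Such a peak was found in 6 of 36 genes in *Wtap* flox/flox (16.7%, interval 7.87% to 31.9%) and in 21 of 44 genes in *Wtap*-HKO (47.7%, interval 33.8% to 62.1%). Over all genes that could be placed, the shares were 18.6% of 7890 and 33.2% of 9239. Counted by peak, the shares were closer to those of the whole lists. They were 8.11% of the 74 *Wtap* flox/flox peaks (interval 3.77% to 16.6%) and 21.6% of the 97 *Wtap*-HKO peaks (interval 14.6% to 30.8%). Over all placed peaks they were 10.6% and 18.1%, which lie within those intervals. The 6 genes, *Irf1*, *Irf3*, *Dhx58*, *Irgm1*, *Psmb8* and *B2m*, had the peak in both lists. The other 15 had a peak there in *Wtap*-HKO only, and 12 of them had a peak elsewhere in *Wtap* flox/flox. These 12 are *Ifngr1*, *Jak1*, *Stat2*, *Irf9*, *Ddx58*, *Eif2ak2*, *Ifit1*, *Xaf1*, *Parp14*, *Dtx3l*, *Gbp7* and *Tap1*, of the 36 genes on both lists (33.3%, interval 20.2% to 49.7%). Over all 7192 such genes that could be placed the share was 14.5%. The start peaks of *Dtx3l* and *Eif2ak2* overlapped peaks of another gene on the opposite strand, so their place among the 12 is uncertain. Peaks with such overlaps were kept in both shares. The remaining 3, *Usp18*, *Ifih1* and *Psmb9*, had no *Wtap* flox/flox peak at all. The 15 peaks of these genes, of which that of *Tap1* extends a *Wtap* flox/flox peak farther in and the other 14 have no partner, had a median fold enrichment of 5.38 (lowest 3.11, highest 13.9). The count depends on the start taken. With the starts of the promoter table, where it holds the gene, the numbers were 5 and 21 genes, without *Irf1* in both lists and *Irf9* in *Wtap*-HKO, and with *Ifit3* (25.6, 61 nt from that start) and *Adar* (11.4, 69 nt) in *Wtap*-HKO. The last 10% of the gene span held 29 of 74 peaks in *Wtap* flox/flox (39.2%) and 25 of 97 in *Wtap*-HKO (25.8%), beside 41.9% and 35.4% over all placed peaks. That the lists differ this way over all genes was known when these genes were chosen, so the shares are a description.

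**Figure D2:**
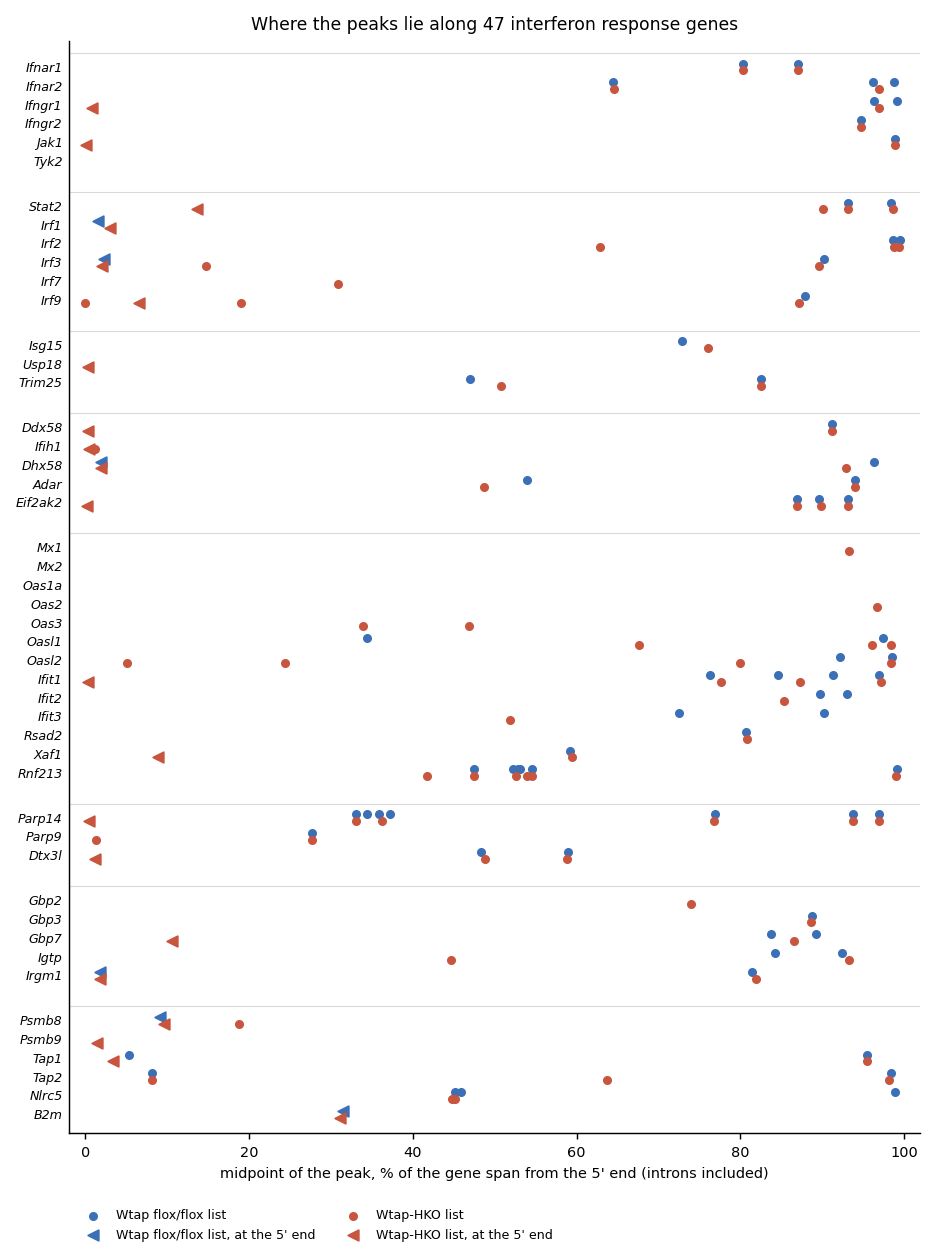
Midpoint of each peak of the 47 interferon response genes as a percentage of the gene span from its 5´ end, introns included, in the *Wtap* flox/flox list (blue) and the *Wtap*-HKO list (red), in the same order of genes as by role. Triangles are peaks with an edge within 200 nt of the gene start, found in 6 genes in blue and in 21 genes in red, and a midpoint can lie farther in where a peak spans an intron, as in *B2m*.

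**Figure D3:**
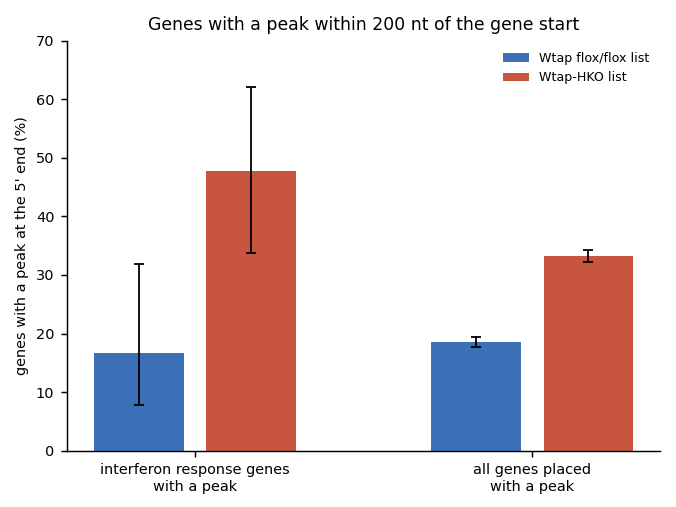
Percentage of genes with a peak that have 1 within 200 nt of the gene start, for the interferon response genes (left) and all genes that could be placed (right), in each list. Bars start at 0 and error lines are 95% Wilson intervals, which cover counting error only. The bars stand at 16.7% and 47.7% on the left and at 18.6% and 33.2% on the right.

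Of the 74 *Wtap* flox/flox peaks of these genes, 70 overlapped a *Wtap*-HKO peak (94.6%, interval 86.9% to 97.9%), beside 80.1% of all peaks of that list. The 4 without an overlap were those of *Oasl1* (2.47), *Parp14* (3.69) and *Nlrc5* (2.69 and 3.53), all of low enrichment. In the other direction 62 of 97 peaks overlapped (63.9%, interval 54.0% to 72.8%), beside 64.7% of all. The 35 peaks of *Wtap*-HKO without a partner lay in 28 genes, 25 of them in genes that had another peak in *Wtap* flox/flox, and 14 of them were at the 5´ end. Their median fold enrichment was 4.63 (lowest 1.69, highest 21.7), and that of the 62 with a partner 6.66. Over all genes the order was the other way, 6.15 without a partner and 5.84 with one. In 10 groups of peaks, in 9 genes, the overlap was not 1 to 1. In 8 of these *Wtap*-HKO had fewer but joined peaks, and in 8 it had more exonic bases covered.

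Matched 1 to 1, 51 peaks in 30 of the genes could be compared for size. The log2 ratio of fold enrichment, *Wtap*-HKO over *Wtap* flox/flox, had a median of 0.23 (middle range -0.23 to 0.75), and 33 peaks were higher in *Wtap*-HKO, 17 lower and 1 equal. The median over all 10499 matched peaks was 0.01, with 50.4% higher. A ratio over 1 was found in 3 of the 51 peaks (5.88%), those of *Irf3*, *Irgm1* at its start and *Rnf213*, beside 14.9% of all matched peaks. A ratio under -1 was found in 2 (3.92%), those of *Isg15* and *Irgm1* at its 3´ end, beside 12.4% of all. The 7 matched peaks at the 5´ end were all higher in *Wtap*-HKO, with a median of 0.85, beside 0.83 for 1363 such peaks over all genes. Of the 44 matched peaks elsewhere, 26 were higher and 17 lower, with a median of 0.17, beside -0.13 for 8202 over all genes. Within the 47 genes the medians by role ran from -0.50 for ISG15 and its enzymes (3 peaks), -0.44 for the GTPases (5) and -0.33 for the receptors (4) to 0.49 for the antiviral effectors (9) and 0.62 for antigen presentation (7). These medians mix peaks at the 5´ end with peaks elsewhere. At the 5´ end were peaks of *Tap1*, *Psmb8* and *B2m* in antigen presentation and of *Irgm1* in the GTPases.

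**Figure D4:**
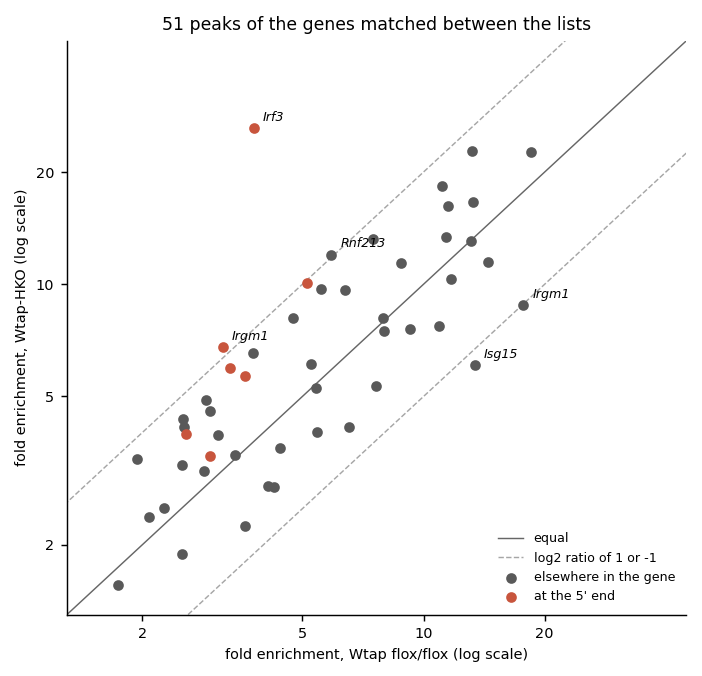
Fold enrichment of the 51 matched peaks of the interferon response genes in *Wtap*-HKO (vertical) against *Wtap* flox/flox (horizontal), both on log scales. Points are single peaks without error, red at the 5´ end and grey elsewhere, the solid line marks equal values, the dashed lines log2 ratios of 1 and -1, and the peaks outside them are named. The 7 red points lie above the solid line, with *Irf3* the farthest from it.

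The authors' list of differential peaks named 14 of the 47 genes, with 17 peaks. That is 31.8% of the 44 genes with a peak (interval 20% to 46.6%), beside 27.8% of all genes with a peak. Set against the peaks of the 2 genotypes, 4 of the 17 overlapped a *Wtap*-HKO peak only, at the starts of *Ifngr1*, *Jak1*, *Stat2* and *Ifih1*. The fold enrichment was higher in *Wtap*-HKO at 6, those of *Oasl2* (11.1 and 18.4), *Ifit3* (9.29 and 25.6, its highest peaks), *Tap1* (1.94 and 3.39), the 3´ end of *Stat2* (2.51 and 3.27) and *Parp14* (13.2 and 22.8, and 5.57 and 9.73). It was lower at 7, those of *Isg15*, *Irgm1* (3´ end), *Oasl1* (3´ end, 11.2 and 4.92), *Irf9*, *Ifngr2* and *Igtp*, which had 2. The peak at the start of *Irf3*, the matched peak with the largest ratio, was not in that list.

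A further 40 genes of interferon signalling and response, which were not among the 47, were counted in the same way. The *Wtap* flox/flox list named 31 of them and the *Wtap*-HKO list 36, with 53 and 75 peaks. Named in the second list only were *Samhd1* (4 peaks, the highest 7.29), which depletes nucleotides, the RNA-degrading exonuclease *Isg20* (4.96), *Parp12* (4.43), *Ifi27* (3.47) and the viral RNA-binding factor *Zc3hav1* (1.83). None had a peak in *Wtap* flox/flox only, *Tbk1*, *Uba7*, *Ube2l6* and *Psme2* had none in either, and 14 were named in the list of differential peaks. Of the 36 with a peak, the share in *Wtap*-HKO only was 13.9% (interval 6.08% to 28.7%), beside 22% of all genes with a peak, and the share in the differential list 38.9% (interval 24.8% to 55.1%), beside 27.8%. The ratio of peak numbers was 1.42, beside 1.23 over all genes.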

How the data were processed

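m6ARIP-seq of 8 liver samples was examined (2 IP and 2 input libraries of each genotype). According to the methods, the authors used exomePeak to find the regions enriched in IP and those whose enrichment differed by genotype, after alignment to GRCm38. The submitters' processing notes name fastp 0.19.11, BWA 0.7.12 and HOMER 4.9.1. BWA does not split reads over exon junctions, so that short exons may be under-covered. The rule that combines replicates is not given in the sources used here. The fold enrichment deposited by the authors is a ratio of IP over input, and the deposited false discovery rate is a log10 score of their peak caller. The list of differential peaks also holds the authors' own difference, p-value and false discovery rate between the genotypes, which were not used. Direction was read from the fold enrichment in the 2 genotype lists.

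Genes were found by the name in the lists, and peaks were called shared from 1 exonic base on the same strand. Gene starts came from RefSeq (GRCm38.p6), whose spans include introns and ignore isoforms. Starts are printed 1-based. Shares carry 95% Wilson intervals, which cover counting error only, and peaks of a gene are not independent. The depth is unknown. Python 3.11.15, pandas 2.3.3, numpy 2.4.6 and matplotlib 3.10.9 were used, and overlap and placement were tested on simulated peaks. The 47 genes, their roles and the other lists were chosen with earlier results of these data known. Every gene was accounted for by role, with values for each gene with a peak in 1 list only, each log2 ratio over 1 or under -1 and each differential peak. The alternatives were a stricter false discovery rate, a minimum fold enrichment, other overlap rules, other centring and matching by position. A false discovery rate under 0.01 had also been planned, but every deposited peak passes it. Those for the 5´ end were chosen after seeing the data. m6A sequence motifs within peaks and the parts of transcripts were not analysed here.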

Additional observations from a re-analysis of the deposited data

How the results depend on the processing

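Under 34 alternatives for 10 results, which leave out the false discovery rate under 0.01 that every peak passes, all counts of genes stayed within 1.5 times the reported one and all shares within their 95% interval. The median log2 ratio kept its sign and, where it was recomputed on the log2 scale, stayed within 1 SD (0.67) of its value. That SD is the spread over single matched peaks, so it is a wide limit for a median. The genes with a peak in *Wtap*-HKO only went from 8 to 6 with a false discovery rate under 1e-05, where 35 genes had a peak in *Wtap* flox/flox, against 41 in *Wtap*-HKO. At that cutoff *Mx1* (3.5e-05), *Oas2* (0.0011) and *Gbp2* (7.6e-05) had no peak left. *Gbp3* was added, because its *Wtap* flox/flox peak (0.00013) did not pass, so the 6 are not all among the 8. The median log2 ratio ran from 0.22, when centred on all matched peaks, to 0.24, with the highest peak of each gene. As a difference of percentile ranks it was 1.94 points. The genes with a peak at the 5´ end ran from 5 to 6 for *Wtap* flox/flox and from 18 to 23 for *Wtap*-HKO with the edge within 100 or 400 nt of the start, a false discovery rate under 1e-05 or the starts of the promoter table, settings chosen after seeing the data. No paired analysis was possible because the lists combine the replicates, and no replicate could be left out for the same reason. The depth of the libraries is unknown, so a gene without a peak may have been below the enrichment or coverage that could be detected.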
